A study of Homo sapiens with 6 samples.

Results

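The AP-1 transcription factor genes JUN, JUNB, JUND, FOS, FOSB, FOSL1, FOSL2, ATF3, BATF2 and MAFF were read in CELF6 over-expressing and control A549 cells. They were chosen by symbol, as 10 of the 29889 genes of the count table, and all 10 had enough reads to be among the 15847 genes that passed the filter on low counts. A549 cells derive from a human adenocarcinoma of the lung. They were transiently transfected with an hrGFP plasmid that carried CELF6 (CELF6-OE) or with the same kind of plasmid left empty (Control), and were harvested 48 h later. Polyadenylated RNA was sequenced from 3 biological replicates per group, 6 libraries in all, and no sorting or selection of the transfected cells is described. The study asked which transcripts change in level or splicing when CELF6, an RNA-binding protein that acts on splicing and mRNA stability, is raised.

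AP-1 is a dimer of basic leucine zipper proteins. A JUN protein pairs with another JUN or with a FOS protein, and ATF, BATF and small MAF proteins can take the place of a partner. The dimer binds the TPA response element or the related cyclic AMP response element (CRE). FOS and JUNB are immediate-early genes, switched on within minutes by growth factors, stress and cytokines. FOSL1 is a longer-lived member that epithelial tumour cells often hold at a high level.

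Control libraries held 36422617 to 37920700 counts on genes, and CELF6-OE libraries 33748328 to 35413404. Mitochondrial genes took 8.69% to 10.1% of them. CELF6 had 18646, 20789 and 11571 counts in CELF6-OE replicates 1 to 3 and 0 in each Control library, so the libraries carried the labelled treatment. A count of 0 allows up to 3 counts per library, and against that limit the reads counted for CELF6 were at least 5937-fold higher. CELF6 lies wholly within the span of another protein-coding gene on the same strand, which had 1440 to 1596 counts in Control. It had 1097 to 1163 in CELF6-OE. How reads shared by the pair were counted is not stated, so the limit covers only reads assigned to CELF6. The epithelial keratins KRT8 and KRT18 had a mean FPKM of 2530 and 2334 in Control, where FPKM is a fragment count divided by the length of the transcript and by the depth of the library. The pan-leukocyte gene PTPRC had 2 counts in Control replicate 1 and 0 in the other libraries.

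The promoters are shown first because the genes of this family are known to regulate one another through AP-1 and CRE sites. RefSeq promoter sequences of GRCh38.p14, from 250 bases before to 50 bases after the start, were found for 9 of the 10 genes, all but FOSL1. ATF3 and MAFF had a pair of starts each, which gave 11 promoters. The full CRE (TGACGTCA) was found in the promoters of JUND and MAFF and in 1.85% of all 35114 promoters of this length. The TPA response element (TGANTCA) was found in FOSL2 and in 7.71% of all promoters. The CRE half-site TGACG, which also lies inside the full CRE, was found in 7 of the 11 promoters, each of another gene, and in 24.6% of all promoters. The TATA box (TATAAA) was found in JUNB, FOS, FOSB and ATF3 and in 11.5% of all promoters. Both strands were searched. The windows below, each of 30 bases and written 5′ to 3′ on the strand of the gene, carry the match in capitals.
JUNB, TATA box, chr19:12791443-12791472, plus strand: tgactagcgcggTATAAAggcgtgtggctc
JUNB, CRE half-site, chr19:12791336-12791365, plus strand: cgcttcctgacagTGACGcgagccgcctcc
FOS, TATA box, chr14:75278783-75278812, plus strand: taaaacgcttgtTATAAAagcagtggctgc
FOS, CRE half-site, chr14:75278751-75278780, plus strand: gtggttgagcccgTGACGtttacactcatt
FOSB, CRE half-site, chr19:45467923-45467952, plus strand: agcaaggggcgggTGACGtaagcagggggg
FOSL2, TPA response element, chr2:28392850-28392879, plus strand: gtgccattgtagTGACTCAtctcgggcaga
JUND, CRE, chr19:18281804-18281833, minus strand: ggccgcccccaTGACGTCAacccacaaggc
MAFF, CRE, chr22:38201929-38201958, plus strand: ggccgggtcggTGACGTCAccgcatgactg
Counted from the start, the TATA boxes began at position -31 in JUNB, -33 in FOS and -30 in FOSB, but at -230 in ATF3. The half-sites began at -64 in FOS and -60 in FOSB. The full CREs began at position -200 in JUND and -54 in MAFF. The interferon-stimulated response element core (TTTC followed after 2 bases by TTTC) was in 3.57% of all promoters and the CArG box, the site of serum response factor, in 1.29%, and neither was in a window of these genes. The STAT site GAS (TTCNNNGAA) and an NF-kB site were each found in MAFF alone, against 7.66% and 5.91% of all promoters. A match is a string of letters, and the windows leave out sites farther upstream.

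Of the 10 AP-1 genes, 4 were lower and 1 was higher in CELF6-OE. BATF2, JUNB, FOS and ATF3 fell and FOSL1 rose, while JUN, JUND, FOSB, FOSL2 and MAFF did not pass an adjusted p of 0.05. These calls come from the quasi-likelihood test of edgeR, with p-values adjusted by Benjamini-Hochberg over all 15847 genes. Among all genes tested, 11.5% were lower and 6.47% higher by the same rule. The 10 genes were chosen with earlier results of these data known, so these shares do not test the set. The threshold of the study's methods, p under 0.01 with a fold change of 1.5, kept BATF2, JUNB, FOS and ATF3, where 5.91% of all genes were called lower. That threshold called no AP-1 gene higher in edgeR's test, where 1.36% of all genes were called higher. FOSL1 met its limit on p and fell just short of the fold change of 1.5, with a log2 fold change of 0.56. The log2 fold change of FOSL1 was 0.60 in edgeR with scaling by library size only, and its ratio of mean FPKM was 1.51. Both lie above a fold change of 1.5, so this count depends on the scaling and the measure. At an unadjusted p under 0.05, 5 AP-1 genes were lower, against 18% of all genes tested, and 2, FOSB and FOSL1, were higher, against 14.8%. The median log2 fold change over the 10 genes was -0.14, against 0.011 over all genes tested. In bulk RNA, fewer cells with a transcript and less of it in each cell cannot be told apart.

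**Figure D1:**
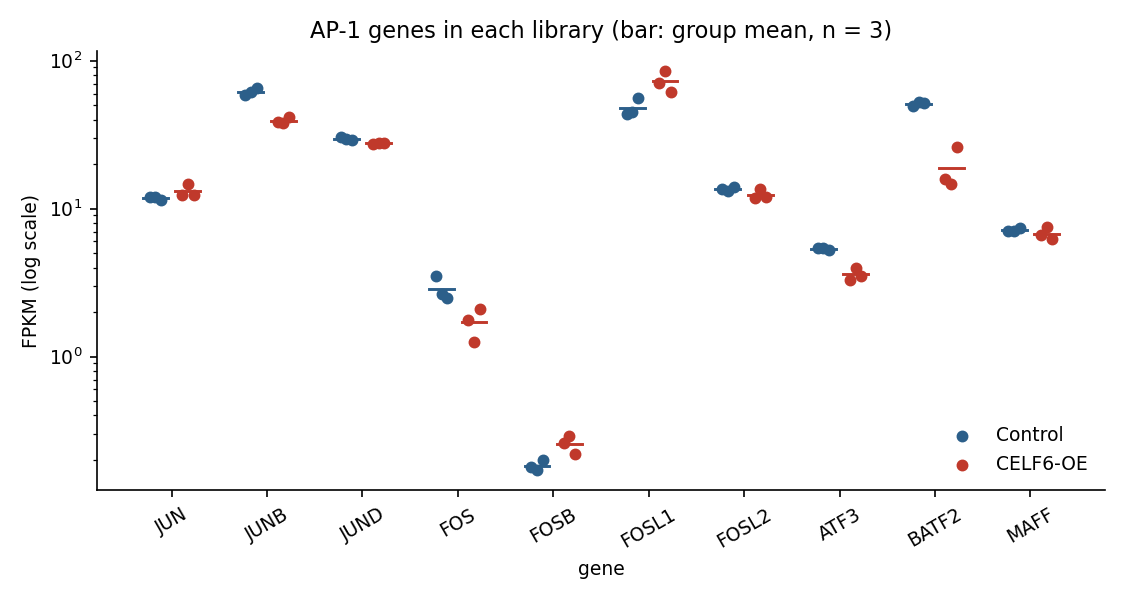
FPKM on a log scale (y axis) of the 10 AP-1 genes (x axis) in each of the 3 Control (blue) and 3 CELF6-OE (red) libraries, with a bar at each group mean. The CELF6-OE points of JUNB, FOS, ATF3 and BATF2 lie below every Control point, and those of FOSL1 lie above every Control point.

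**Figure D2:**
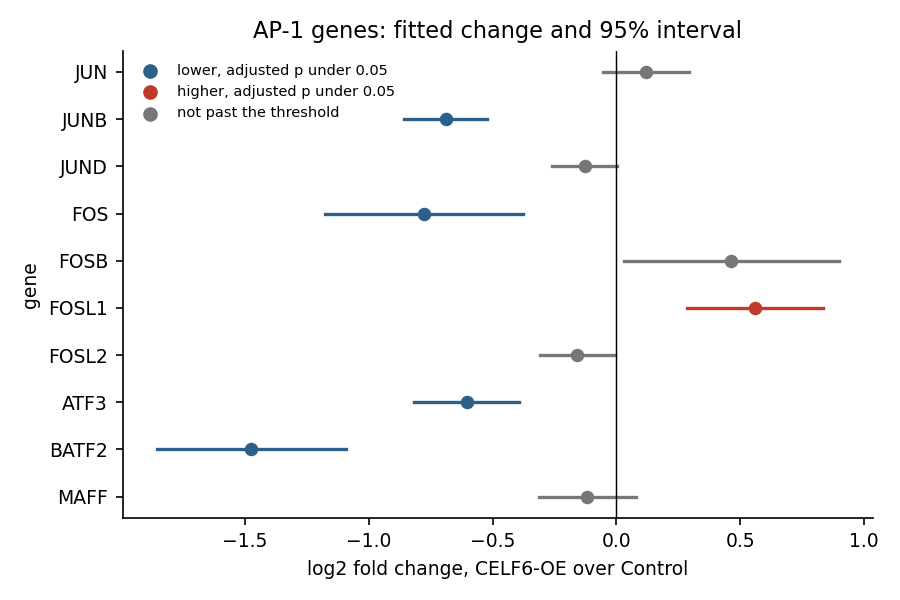
Fitted log2 fold change of CELF6-OE over Control (x axis) for each AP-1 gene (y axis), with the 95% interval of edgeR's quasi-likelihood fit (n = 3 per group). The intervals of BATF2, JUNB, FOS and ATF3 lie below 0 and that of FOSL1 above it, and BATF2 (-1.47) lies farthest from 0.

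Among the JUN genes, which supply the obligate partner of FOS proteins, JUNB changed. JUNB, whose product is a weaker activator than c-Jun and can oppose it, had an FPKM of 58.22, 61.52 and 65.80 in Control replicates 1 to 3. In CELF6-OE it had 38.27, 37.94 and 41.45. All CELF6-OE libraries were below all Control libraries, and the means were 39.2 ± 1.94 and 61.8 ± 3.80 (SD, n = 3 each). The log2 fold change was -0.69 (standard error 0.076, adjusted p = 0.000145 in edgeR). JUNB lies on chr19:12791486-12793315 of GRCh38, wholly within the span of HOOK2 on the other strand. The library kit keeps strand, but whether the counting used it is not stated, so reads of the overlapping pair cannot be told apart. HOOK2 had 282 to 299 counts in Control and 207 to 251 in CELF6-OE, where JUNB had 4014 to 4724 and 2528 to 2664.

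JUN, which encodes c-Jun, the main target of the JNK kinases, had an FPKM of 12.06, 11.98 and 11.52 in Control and 12.35, 14.78 and 12.30 in CELF6-OE. The groups did not overlap, but replicates 1 and 3 of CELF6-OE lay close to the highest Control library. The log2 fold change of 0.12 had a 95% interval from -0.054 to 0.29 (adjusted p = 0.322 in edgeR). JUND, a constitutive member that is little induced by serum, had 30.51, 29.59 and 29.01 in Control and 27.55, 27.93 and 27.73 in CELF6-OE. Its libraries did not overlap either, yet the log2 fold change was -0.13 with an interval from -0.26 to 0.0018 (adjusted p = 0.158 in edgeR). The interval of each gene leaves out a change as large as that of JUNB.

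Summed over the JUN family, the Control libraries had an FPKM of 100.79, 103.09 and 106.33 and the CELF6-OE libraries 78.17, 80.65 and 81.48. The means of 80.1 ± 1.72 and 103 ± 2.78 (SD, n = 3 each) gave a ratio of 0.775. The groups did not overlap (p = 0.1 in a two-sided exact permutation test, the lower limit for 3 libraries against 3). JUNB held 59.8% ± 2.06 of the family FPKM in Control and 49.0% ± 1.91 in CELF6-OE (SD, n = 3 each). The share of JUND was 28.8% ± 1.49 and 34.6% ± 0.605, and that of JUN 11.5% ± 0.580 and 16.4% ± 1.70, in the same order. JUNB remained the most abundant JUN transcript in every library.

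The FOS genes moved in both directions. FOS, the classical immediate-early gene whose mRNA decays quickly, had an FPKM of 3.51, 2.63 and 2.49 in Control and 1.77, 1.25 and 2.10 in CELF6-OE. The groups did not overlap, although CELF6-OE replicate 3 lay near Control replicate 3. FOS fell by 0.78 on the log2 scale (standard error 0.18, adjusted p = 0.0138 in edgeR). Its counts were 288 to 391 in Control and 136 to 218 in CELF6-OE. The adjusted p in edgeR was 0.0456 without CELF6-OE replicate 1 and 0.0491 without CELF6-OE replicate 2, close to the threshold.

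FOSL1, which encodes FRA-1, a FOS protein tied to invasion in carcinoma cells, had an FPKM of 43.97, 44.71 and 55.69 in Control and 70.48, 85.57 and 61.90 in CELF6-OE. Control replicate 3 was the highest Control library and CELF6-OE replicate 3 the lowest treated one, 61.90 against 55.69. FOSL1 rose by 0.56 on the log2 scale (standard error 0.12, adjusted p = 0.0106 in edgeR), a ratio of mean FPKM of 1.51. The call rested on single libraries. Without CELF6-OE replicate 2 the log2 fold change was 0.43 (adjusted p = 0.0610 in edgeR), and without Control replicate 2 it was 0.51 (adjusted p = 0.0574 in edgeR). Over all 18 alternatives the adjusted p lay between 1.57e-11, in edgeR with no filter, and 0.0610.

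FOSL2, which encodes FRA-2, had 13.55, 13.23 and 13.93 in Control and 11.83, 13.48 and 11.96 in CELF6-OE, so the groups overlapped in FPKM. The log2 fold change was -0.16, with an interval from -0.31 to -0.0069 (adjusted p = 0.136 in edgeR). FOSB, a further inducible FOS gene, had the fewest reads of the 10, 37 to 43 counts in Control and 43 to 59 in CELF6-OE. Its log2 fold change was 0.46 with an interval from 0.030 to 0.90 (adjusted p = 0.128 in edgeR). FOSB lies wholly within the span of the DNA repair gene ERCC1 on the other strand, which had 4892 to 6045 counts per library.

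The FPKM summed over the FOS family was 61.21, 60.74 and 72.31 in the Control libraries and 84.34, 100.59 and 76.18 in the CELF6-OE libraries, a ratio of means of 1.34. The groups did not overlap in FPKM (p = 0.1 in a two-sided exact permutation test, its lower limit here). In CPM, which does not correct for length, they did, since CELF6-OE replicate 3 had 209 and Control replicate 3 had 222, and the log2 ratio was 0.21 (exact permutation p = 0.2) in place of 0.43. FOSL1 held 74.2% ± 2.63 of the family FPKM in Control and 83.3% ± 1.92 in CELF6-OE (SD, n = 3 each). FOSL2 held 21.1% ± 1.57 and 14.4% ± 1.19, and FOS 4.50% ± 1.16 and 2.03% ± 0.759. FOSB held 0.284% ± 0.00929 and 0.295% ± 0.0114. Of the 7 shares tested in both families, those of the other genes did not overlap between the groups. Each had the smallest p of the exact permutation test, 0.1 (0.117 after Benjamini-Hochberg adjustment over the 7), and for FOSB the exact p was 0.3. Shares of a family add up to its whole, so the 7 tests are not independent, and a share can move through the other genes. The share of JUND rose while its mean FPKM was 29.7 in Control and 27.7 in CELF6-OE.

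**Figure D3:**
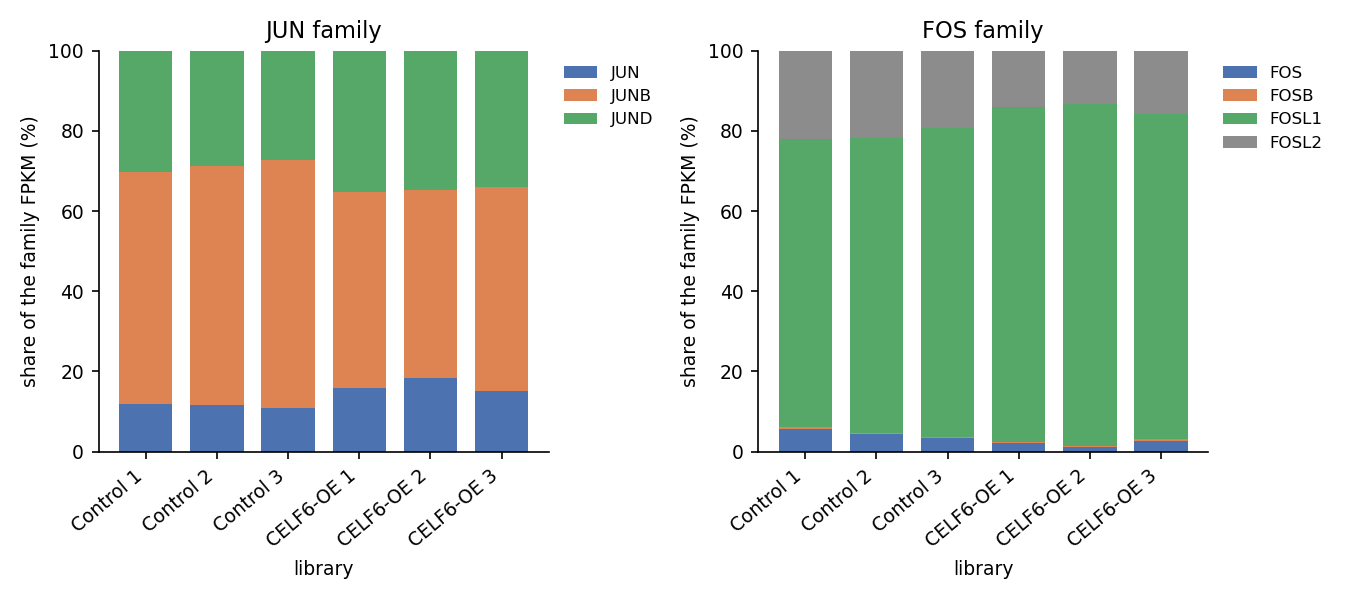
Share of the JUN family FPKM (left) and of the FOS family FPKM (right) held by each gene, in percent (y axis), in each library (x axis). In every CELF6-OE library JUNB takes a smaller part of the JUN bar than in any Control library, and FOSL1 a larger part of the FOS bar.

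The gene with the largest change of the 10 was a partner gene outside the JUN and FOS families. BATF2, a basic leucine zipper gene induced by interferons, had an FPKM of 49.54, 52.58 and 51.87 in Control and 15.75, 14.74 and 26.17 in CELF6-OE. The groups were far apart, and CELF6-OE replicate 3 had the highest BATF2 level of its group, as well as the lowest CELF6 count. That is a single library, and a link between the levels of CELF6 and BATF2 was not tested. BATF2 fell by 1.47 on the log2 scale (standard error 0.17, adjusted p = 0.000209 in edgeR). With each library left out in turn, the log2 fold change lay between -1.79 and -1.32.

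ATF3, a stress-induced member that can repress its targets as a homodimer, had an FPKM of 5.43, 5.43 and 5.25 in Control and 3.29, 4.0 and 3.53 in CELF6-OE. All treated libraries were lower, with means of 3.61 ± 0.361 and 5.37 ± 0.104 (SD, n = 3 each). ATF3 fell by 0.60 on the log2 scale (standard error 0.097, adjusted p = 0.00163 in edgeR). MAFF, a small MAF protein without an activation domain, had 7.08, 7.09 and 7.43 in Control and 6.65, 7.48 and 6.21 in CELF6-OE. Its groups overlapped, and the log2 fold change of -0.12 had an interval from -0.31 to 0.079 (adjusted p = 0.393 in edgeR). Most of the MAFF locus, 14012 bases, overlaps PLA2G6 on the other strand, which had 56 to 68 counts per library.

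By mean FPKM in Control the order was JUNB, BATF2, FOSL1, JUND, FOSL2, JUN, MAFF, ATF3, FOS and FOSB, from 61.8 down to 0.183. BATF2 and FOSL1 were the neighbours whose libraries overlapped. In CELF6-OE the order was FOSL1, JUNB, JUND, BATF2, JUN, FOSL2, MAFF, ATF3, FOS and FOSB, where the ranges of BATF2 and JUN, and of JUN and FOSL2, overlapped. By these means FOSL1 stood behind JUNB and BATF2 in Control and ahead of both in CELF6-OE. In Control replicate 3, however, FOSL1 (55.69) was above BATF2 (51.87). Summed over the 10 genes, FPKM ranged from 224 to 243 in Control and from 188.2 to 207 in CELF6-OE, a ratio of means of 0.846 (p = 0.1 in a two-sided exact permutation test, its lower limit here). In CPM scaled by TMM, the groups did not overlap for 6 genes on the lower side and 3 on the higher side, where 20% and 17.9% of all genes tested were so placed.

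Of 15 other genes that can pair with AP-1 proteins, 13 were tested, and 3 fell and 1 rose in edgeR's test. These were 23.1% and 7.69% of those tested, against 11.5% lower and 6.47% higher among all genes tested. MAFK, a small MAF gene, fell by 0.46 on the log2 scale. NFE2L1, a CNC factor that dimerizes with small MAFs, fell by 0.23. CEBPB fell by 0.34. MAFG, a further small MAF gene, rose by 0.26. Their adjusted p lay between 0.00309 and 0.0189, and the median of the list was 0.051. MAFK and CEBPB were called with each library left out. MAFG and NFE2L1 were called in 3 of the 6 such fits, and lost their calls without CELF6-OE replicate 1, CELF6-OE replicate 2 or Control replicate 2 (adjusted p up to 0.0929 for MAFG and 0.0998 for NFE2L1 in edgeR).

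Of 22 kinases and factors that act upstream of AP-1, 2 fell and 4 rose, with a median log2 fold change of 0.068. The shares were 9.09% and 18.2%, against 11.5% and 6.47% of all genes tested. MAP2K6, which activates p38, fell with a log2 fold change of -0.70 and MAP3K8, a kinase upstream of ERK, with -0.45. The ETS factors ELK3 and ELK4, partners of serum response factor, rose by 0.57 and 0.39. MAPK9, which encodes JNK2, rose by 0.41. In edgeR the adjusted p of these 5 genes ranged from 0.00141 to 0.0381. Without any 1 CELF6-OE replicate, or without Control replicate 2, 2 genes of the list were higher and 2 lower. ELK4 lost its call in those 4 fits, with an adjusted p up to 0.124, and the other genes named here were called with each library left out.

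Of 28 other immediate-early genes, 26 were tested, and 8 fell and 2 rose, 30.8% and 7.69% of those tested. Over all genes tested, 11.5% were lower and 6.47% higher. The nuclear receptor genes NR4A2 and NR4A1 fell with log2 fold changes of -1.31 and -1.04, and KLF4 and the growth arrest gene GADD45A with -0.76 each. NR4A1 had an FPKM of 10.81, 11.94 and 12.54 in Control and 5.72, 5.13 and 6.74 in CELF6-OE. CTGF and CYR61, matricellular genes driven by YAP, rose by 0.49 and 0.31. The adjusted p of these 6 genes was at most 0.00892 in edgeR. CYR61 lost its call without CELF6-OE replicate 2 or Control replicate 2 (adjusted p up to 0.0583 in edgeR), which left 1 gene of the list higher. EGR1, singled out after its values were seen, had 103 to 127 counts in Control and 75 to 100 in CELF6-OE, with a log2 fold change of -0.30 (adjusted p = 0.202 in edgeR).

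Of 25 genes known as AP-1 targets, 22 were tested and 8 fell, 36.4% of those tested against 11.5% of all genes tested. That count was 5 without CELF6-OE replicate 1 and 4 without Control replicate 2. IL6, an inflammatory cytokine gene with AP-1 and NF-kB sites, had an FPKM of 4.70, 4.59 and 4.27 in Control and 0.92, 1.76 and 1.44 in CELF6-OE, and fell by 1.75 on the log2 scale. PLAUR, the urokinase receptor gene, fell by 0.65, with mean FPKM of 52.0 in Control and 33.8 in CELF6-OE. The collagenase and gelatinase genes MMP13 and MMP9 fell with log2 fold changes of -1.69 and -1.04 at mean FPKM under 1 in both groups, and each was called in 3 of the 6 fits with a library left out. MMP9 lost its call without CELF6-OE replicate 1, CELF6-OE replicate 3 or Control replicate 2, and MMP13 without CELF6-OE replicate 1, CELF6-OE replicate 2 or Control replicate 2. With all 6 libraries, TMM scaling and the filter on low counts, edgeR called 0 target genes higher, as did DESeq2 and limma-voom. In edgeR that count was 1 with scaling by library size only, 1 with no filter and 2 without Control replicate 3. At an unadjusted p under 0.05 in edgeR, 10 of the 22 target genes were lower and 2 were higher. By that rule 18% of all genes tested were lower and 14.8% higher. The median of the list was -0.12. These lists were written from general knowledge with earlier results of these data known, and HBEGF and SRF each stand in a pair of them.

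**Figure D4:**
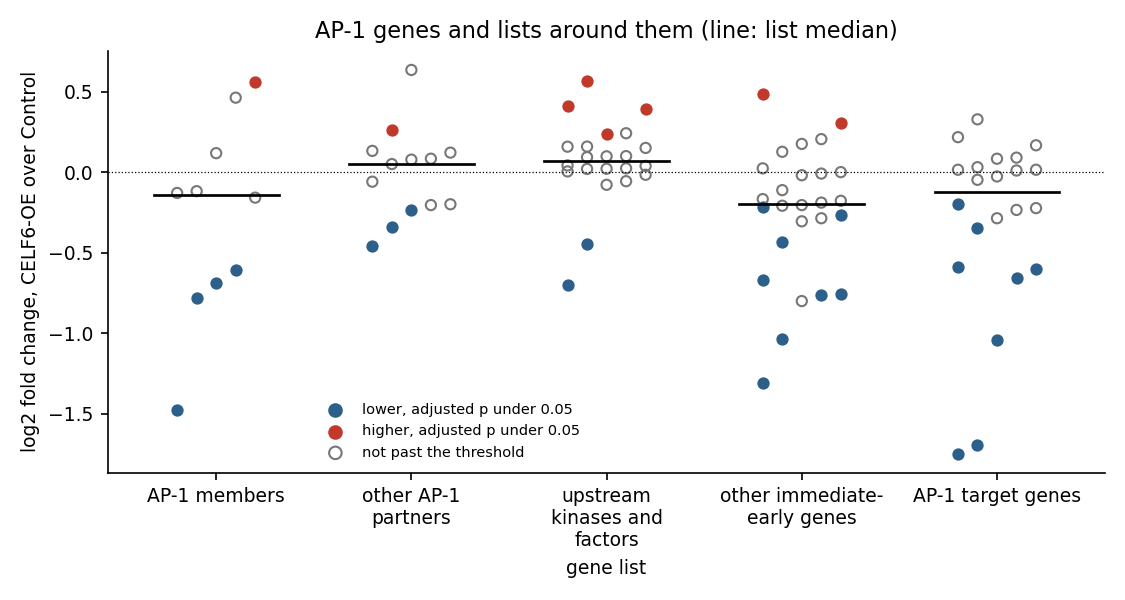
Log2 fold change of CELF6-OE over Control (y axis) for each tested gene of the AP-1 members and of 4 lists around them (x axis), filled where edgeR's adjusted p was under 0.05, with a line at each list's median. Medians lie between -0.20 and 0.068, and blue points outnumber red ones in every list but the upstream kinases and factors.

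Epithelial markers moved with the treatment too. Of 10 listed, 9 were analysed and 7 fell, 77.8% against 11.5% of all genes tested. Among them were CDH1, the E-cadherin gene, with a log2 fold change of -1.62, CLDN4 with -1.52, MUC1 with -1.47 and KRT8 with -0.47. The summed FPKM of the epithelial markers ranged from 6210 to 7062 in Control and from 5065 to 5822 in CELF6-OE. Nearly all of that sum came from KRT8, KRT18 and KRT7, with mean FPKM of 2530, 2334 and 1736 in Control. In CELF6-OE they had 1864, 1862 and 1674, and KRT7 was not called. CDH1 had a mean FPKM of 10.8 in Control. Of 17 leukocyte markers, 12 were analysed and 4 had enough reads to be tested. CD68, a lysosomal gene, fell with a log2 fold change of -1.5 and ITGAM with -0.73, the latter not called without CELF6-OE replicate 2 or Control replicate 2. CD79A and CD14, which were not called, had log2 fold changes of 0.46 and 0.17. The summed FPKM of the leukocyte list ranged from 12.8 to 13.5 in Control and from 7.14 to 8.42 in CELF6-OE. CD68 alone had a mean FPKM of 8.68 in Control and 3.14 in CELF6-OE, while CD14 had 3.32 and 3.80. The fall of the sum is thus not one of the list in general. PTPRC and MS4A1 had at most 2 counts in any library. The part of these shifts in the AP-1 results was not tested.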

How the data were processed

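RNA-seq of A549 cells from 2 groups of 3 libraries was analysed. Per the labels and methods, reads were trimmed by the authors (FASTX-Toolkit), mapped on GRCh38 (TopHat2) and kept where uniquely located. They deposited whole-number read counts per gene, not normalized. The authors also deposited FPKM values computed from the same reads, rounded to 2 decimals. The counter, whether it used strand, and the gene annotation behind it are not given in the sources used here.

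Counts were scaled with TMM and tested with the quasi-likelihood test of edgeR 4.0.16 (R 4.3.3) on the 15847 genes kept by filterByExpr (minimum count 10), with Benjamini-Hochberg adjustment over all of them. All 29889 genes together gave infinite prior degrees of freedom, so the filter was kept as the main choice (7.15 with it). The prior count for log2 fold changes was 0.125. FPKM gave levels, sums, shares and two-sided exact permutation tests. The biological coefficient of variation was 8.62%. Counting limits cover counting error only, since molecular identifiers are not described.

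The genes and lists were chosen with earlier results of these data known. From each list, up to 4 genes per direction were named, those with the largest change among genes with an adjusted p under 0.05, all 9 pairs of libraries alike and a mean of at least 10 counts; some genes so chosen are not reported here. No 2 replicates were duplicates (chi-square per degree of freedom 7.67 to 29.3). Alternatives were other scalings, filters and tests (DESeq2 1.42.0, limma-voom and limma 3.58.1 on log2 FPKM with pseudocounts of 1 and 0.1), a prior count of 2, removal of CELF6 counts, a replicate block, and each library left out. The threshold of the study's methods was added later. The procedure was tested on simulated counts, with changes placed only in well-counted genes, so recovery was not tried for genes with few reads. Gene positions come from GENCODE v44 and promoters from RefSeq, both on GRCh38.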

Additional observations from a re-analysis of the deposited data

How the results depend on the processing

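BATF2, JUNB, FOS and ATF3 were lower, with an adjusted p under 0.05, in all 18 alternatives run for each, and the count of AP-1 genes lower was 4 in every one. Not all of the 18 could change a call. The prior count of 2 alters the fold change but left each adjusted p as it was, and removal of CELF6 counts takes out a single gene. The fit with no filter had infinite prior degrees of freedom, so its p-values carry little weight. FOS came closest to losing its call, with an adjusted p of 0.0491 in edgeR without CELF6-OE replicate 2. FOSL1 passed in 16 of 18, and the count of AP-1 genes higher was 0 to 1 with each library left out and 0 by the threshold of p under 0.01 with a fold change of 1.5, which was chosen after seeing the data. JUN, JUND, FOSB, FOSL2 and MAFF kept their direction and passed in none of the alternatives, FOSB being left out by the stricter filter. The 4 lists around AP-1 held 28 called genes in all, and 17 to 36 with a library left out, the lowest without Control replicate 2. On CPM, which ignores length, the log2 ratio of the FOS family sum was 0.21. With the replicate number as a block, 4 AP-1 genes were lower and 1 higher, and 23 genes of the lists were called. Same-numbered libraries did not deviate together (correlations -0.084, -0.059 and -0.11), and no library correlated best with its own number. With 3 libraries per group, these values cannot show whether same-numbered libraries were prepared together. Scaling moved the median log2 fold change of all genes to at most 0.049. FOSB and MMP13 rest on few reads, so small changes in them were not detectable at this depth.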
